A study of Homo sapiens with 6 samples.

Results

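The angiopoietin family and adrenomedullin were followed across LINC00115 knockdown as 9 genes, taken from the count table by their symbols. They are the angiopoietins Angpt1, Angpt2 and Angpt4, the angiopoietin-like genes Angptl2, Angptl4 and Angptl6, the receptors Tek and Tie1, and the peptide hormone gene Adm, 9 of 22989 genes in all. They were chosen by their counts in the comparison of KD with WT, together with their role. The samples were 3 libraries labelled LINC00115 KD and 3 labelled WT. By the study's text, both groups were paclitaxel (PTX)-resistant MDA-MB-231 BCSC. These are the breast cancer stem-like fraction of a human triple-negative breast cancer line, sorted for high aldehyde dehydrogenase (ALDH) activity. In the KD group LINC00115, a long non-coding RNA, was depleted with short hairpin RNA (shRNA) delivered by virus and selected with puromycin. The controls are called WT in the labels, whereas the study's text writes of a control shRNA (shC). The KD libraries carry the descriptions sh115-1 to sh115-3. The study's text uses the first and second of these names for 2 different hairpins and gives sh115-2 as the hairpin of its RNA-seq comparison, so the descriptions may only number the replicates of that hairpin.

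Angiopoietins are secreted ligands of the endothelial receptor tyrosine kinase Tie2, encoded by Tek. Angpt1 is the activating ligand, made mostly by mesenchymal and perivascular cells, and it keeps vessels quiescent and tight. Angpt2 opposes or weakly mimics it depending on context, and the ratio of both ligands is widely used to describe vessel stability in tumours. Tie1 binds no angiopoietin by itself and modulates Tie2 at the cell surface. Angiopoietin-like proteins share the domain layout of angiopoietins but do not signal through Tie2, and ANGPTL4 is best known as an inhibitor of lipoprotein lipase. Adrenomedullin, the product of Adm, is a vasodilator peptide, and both Adm and Angptl4 are textbook genes induced by hypoxia through HIF1.

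The libraries held between 36979221 and 38799331 counts, and levels are given as CPM (counts scaled to a common library total with TMM factors). The symbols of the table are written as mouse genes are, with 4648 Gm and 1129 Rik names among them. Only 16 of 22989 equal a human symbol as written. This disagrees with the human line that the study names, and the sources used here do not explain it. It is therefore not known whether the values stand for human genes. The table has 0 rows named LINC00115, so the depletion could not be checked and every direction rests on the group labels. Of the markers of breast epithelium and carcinoma, Vim (3418 ± 49.8 CPM in WT), Cd44 (911 ± 45.8) and Krt8 (472 ± 5.52) were the most abundant (SD, n = 3), and Epcam had at most 5 counts in a library. Of the aldehyde dehydrogenases in that list, Aldh1a1 had 12, 8 and 17 counts in WT and 52, 39 and 41 in KD (log2 fold change 1.82, adjusted p = 0.000925, edgeR's quasi-likelihood test), and Aldh1a3 had at most 4 in a library. The basal keratins Krt5 and Krt14 stood out in WT replicate 3, with 92 and 192 counts. No source says that the libraries came from separate cultures, so the spread between them may be technical.

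The promoters of both hypoxia-induced members are shown because Adm differed between the groups and Angptl4 overlapped. RefSeq promoters of the same human symbol (GRCh38.p14) were matched for 7 of the 9 genes. They belong to the human genes and not to the count table, whose symbols are of mouse style. The windows run from 250 bases before to 50 bases after the transcription start, and capitals mark the core letters bound by HIF, ACGTG or GCGTG, on either strand. The ADM promoter lies at chr11:10304823-10305122 on the plus strand and the ANGPTL4 promoter at chr19:8363905-8364204 on the plus strand.
ADM: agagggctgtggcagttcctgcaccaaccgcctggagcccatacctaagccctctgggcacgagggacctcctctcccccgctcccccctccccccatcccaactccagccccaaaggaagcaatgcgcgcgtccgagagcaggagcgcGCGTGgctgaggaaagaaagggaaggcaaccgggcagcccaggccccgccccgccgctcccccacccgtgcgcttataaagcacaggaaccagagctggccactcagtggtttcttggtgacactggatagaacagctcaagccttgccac
ANGPTL4: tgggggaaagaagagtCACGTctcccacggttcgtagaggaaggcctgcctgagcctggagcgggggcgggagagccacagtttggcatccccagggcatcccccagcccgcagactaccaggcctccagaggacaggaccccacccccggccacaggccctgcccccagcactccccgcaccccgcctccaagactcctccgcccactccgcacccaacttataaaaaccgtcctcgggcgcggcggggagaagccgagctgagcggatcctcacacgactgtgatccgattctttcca
ADM held 1 match, GCGTG on the plus strand, whose first base lies at −101 from the start. ANGPTL4 also held 1 match, ACGTG on the minus strand, printed as CACGT with its first base at −234. Among the other members, ANGPT4 held 2 matches in 1 window and ANGPTL6 2 over 3 windows, while the windows of ANGPTL2, TEK and TIE1 held 0. The letters are common, since 48.4% of 35116 RefSeq promoter windows of this length held at least 1 match (both motifs, either strand, overlapping matches counted), and 21.4% held ACGTG. A match is a description of the letters and not a site.

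The members differed in both directions. Angpt1 and Angpt4, both ligands of Tie2, stood higher in the KD libraries by 3.25-fold and 13.2-fold, whereas Adm stood 3.41-fold and Tie1 3.05-fold lower. Angpt2 and Angptl2 differed by little, Angptl4 and Angptl6 overlapped between the groups, and Tek was almost absent. At an adjusted p under 0.05 and a fold change over 2 in edgeR's fit across 13497 genes, 2 of the 8 members tested were called higher and 2 lower. Tek did not pass the filter on low counts. Of all genes tested, 20.2% were called, 10.2% higher and 9.98% lower. The 9 members were chosen with this same contrast in view, so their differences are described with standard errors and no p-value, and nothing is read from the count. In bulk libraries, fewer cells of a type and less RNA per cell cannot be told apart.

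**Figure D1:**
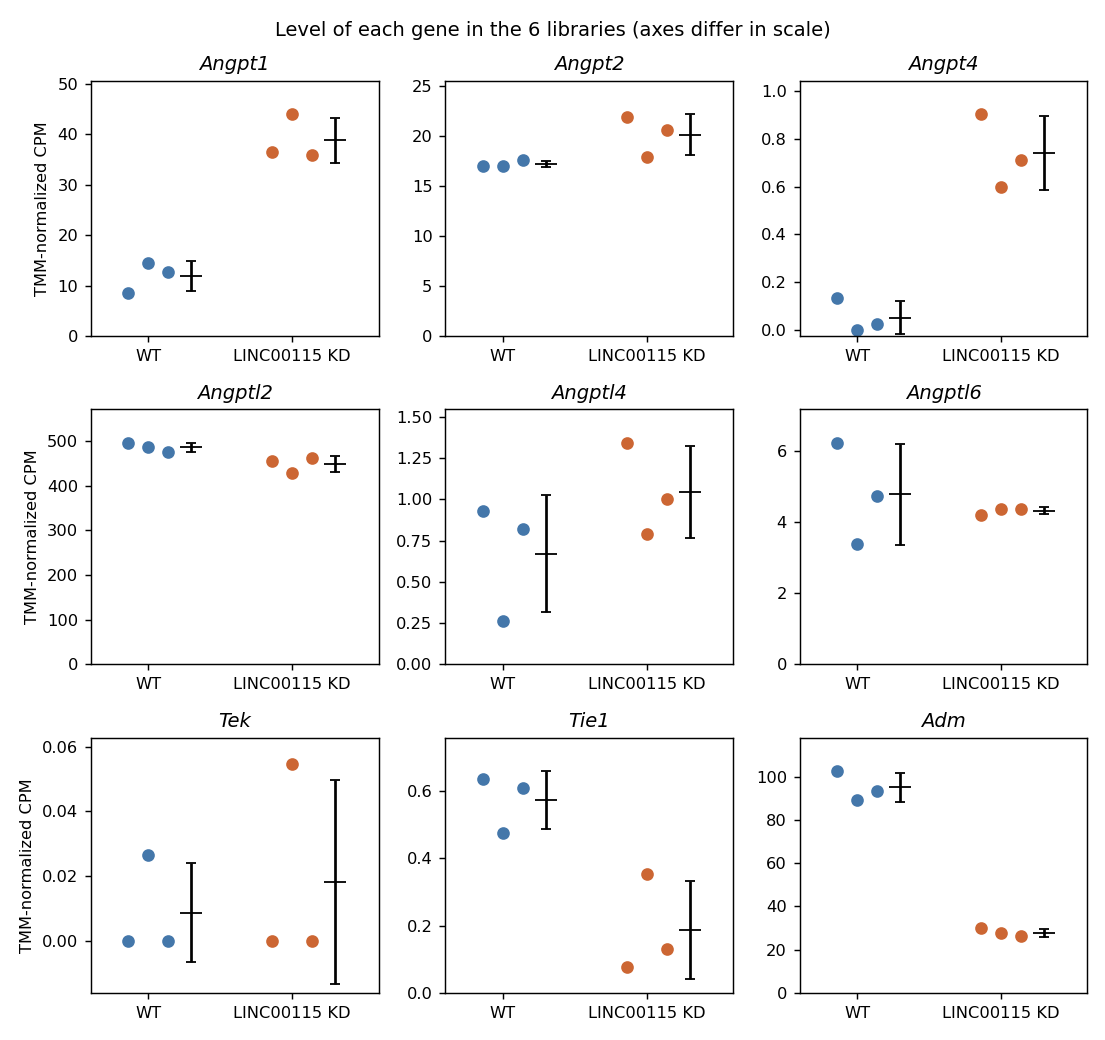
TMM-normalized CPM (y axis, a scale of its own in each panel) of the 9 genes in the 3 WT libraries (blue) and the 3 LINC00115 KD libraries (orange), with the mean and SD of each group in black. All KD libraries lie above all WT libraries for Angpt1, Angpt2 and Angpt4 and below them for Angptl2, Tie1 and Adm, and the groups overlap for Angptl4, Angptl6 and Tek.

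Angpt1 had 324, 544 and 481 counts in WT replicates 1 to 3 and 1411, 1613 and 1365 counts in KD replicates 1 to 3. Every KD library was thus far above every WT library. In CPM, Angpt1 stood at 11.9 ± 2.99 in WT and 38.8 ± 4.47 in KD (SD, n = 3 each). The log2 fold change was 1.70, with a standard error of 0.11. The WT libraries varied more than counting alone gives, with a coefficient of variation of 25.1% against 4.72% from counting error, and WT replicate 1 was the lowest of them. Fits that each lacked 1 library gave log2 fold changes from 1.51 to 1.86.

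Angpt2, the context-dependent ligand, had 640, 644 and 665 counts in WT and 848, 658 and 784 in KD. KD replicate 2 lay only slightly above the WT libraries by CPM (17.9 against at most 17.6) and by counts below WT replicate 3. The means were 17.2 ± 0.33 CPM in WT and 20.2 ± 2.04 in KD, a log2 fold change of 0.23 (standard error 0.09), which is under the fold change of 2. The 3 WT libraries agreed within counting error (coefficient of variation 1.94% against 3.92% from counting).

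The count of Angpt2 over that of Angpt1, which compares the same pair of genes between libraries and needs no scaling, was 1.98, 1.18 and 1.38 in WT and 0.601, 0.408 and 0.574 in KD. The ratio was above 1 in each WT library and under 1 in each KD library. Its mean was 1.51 ± 0.41 in WT and 0.53 ± 0.10 in KD (SD, n = 3 each), while Angpt2 itself was 1.17-fold and Angpt1 3.25-fold higher in KD. Transcript lengths were not taken into account, so the value 1 has no meaning of its own.

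Angpt4, a further Tie2 ligand, was scarce, with 5, 0 and 1 counts in WT and 35, 22 and 27 in KD. The groups did not overlap, and the sums over the libraries were 6 counts (95% exact Poisson interval 2.20 to 13.1) against 84 (67.0 to 104), intervals that cover counting error only. The level went from 0.053 ± 0.070 to 0.738 ± 0.155 CPM, with a log2 fold change of 3.72 (standard error 0.73). The size rests on few WT counts, because the log2 fold change was 5.49 without WT replicate 1, the library with 5 counts, and 3.16 without WT replicate 2, which had none.

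Both receptors were at the edge of detection. Tek, the gene of Tie2 itself, had 0, 1 and 0 counts in WT and 0, 2 and 0 in KD, so 4 of 6 libraries had none. The sums of 1 count (95% exact Poisson interval 0.025 to 5.57) and 2 counts (0.24 to 7.22) left no difference that could be detected at this depth. The libraries with many counts of Angpt1 therefore held next to none of its receptor.

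Tie1 had 24, 18 and 23 counts in WT and 3, 13 and 5 in KD. All KD libraries were lower than all WT libraries, though KD replicate 2 stood close to WT and the KD group varied widely (coefficient of variation 78.1% in KD, against 37.8% from counting). Its level went from 0.574 ± 0.086 to 0.188 ± 0.147 CPM, a log2 fold change of −1.61 (standard error 0.60). The call of Tie1 did not hold when single libraries were left out, namely without WT replicate 1 (log2 fold change −1.53), WT replicate 3 (−1.56), KD replicate 1 (−1.23) or KD replicate 3 (−1.40). Without KD replicate 2 it was −2.41 and the gene stayed called.

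Endothelial markers differed in both directions. Their summed level was 175 to 181 CPM in WT and 259 to 278 CPM in KD, and most of it came from Eng, Flt1 and Cdh5. Of 15 markers in the table, 5 had over 3 counts in each KD library and lay above all WT libraries, beside 24.2% of all genes with a count, and 3 had over 3 counts in each WT library and lay above all KD libraries, beside 24.0%. Cdh5, the adhesion molecule of endothelial junctions, had 14, 5 and 6 counts in WT and 2175, 2136 and 2243 in KD, a log2 fold change of 8.01 (adjusted p = 4.86e-32, edgeR's quasi-likelihood test). Esam was also called higher (2, 14 and 10 counts in WT and 24, 22 and 33 in KD, log2 fold change 1.59, adjusted p = 0.0132), Cldn5 had none in WT and 9, 9 and 18 in KD, and Robo4 had none in WT and 12, 8 and 5 in KD. Plvap was called lower (log2 fold change −1.01, adjusted p = 0.0299, edgeR's quasi-likelihood test). Under a fold change of 2, Flt1 was lower in each KD library (84.1 CPM in WT and 56.9 in KD, −0.57, adjusted p = 6.54e-12, same test). Egfl7 was lower too (9.21 and 7.15 CPM, −0.37, adjusted p = 0.0144), whereas Eng was higher (82.5 and 140.5 CPM, 0.77, adjusted p = 6.22e-17). Of the defining markers, Pecam1 (at most 19 counts in a library) and Vwf (at most 20) overlapped between the groups, Kdr had 0, 0 and 1 counts in WT and 2, 10 and 2 in KD, and Emcn and Erg had at most 1. Of the lymphatic markers, Lyve1 had 0, 1 and 0 counts in WT and 80, 75 and 62 in KD (log2 fold change 7.30, adjusted p = 7.05e-11, edgeR's quasi-likelihood test), and Pdpn had 0, 2 and 4 in WT and 26, 17 and 13 in KD (3.14, adjusted p = 0.000483). Prox1, which defines lymphatic identity, was at 0 in all 6 libraries. The lymphatic list summed to between 0 and 0.159 CPM in WT and between 2.05 and 2.79 in KD, with 2 of 5 markers higher by the same rule. The part of these genes in the values of Tie1 was not tested.

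Adm had 3864, 3363 and 3537 counts in WT and 1153, 1014 and 995 counts in KD. The groups were far apart and each was tight, with coefficients of variation of 7.22% in WT and 6.53% in KD. The level went from 95.1 ± 6.86 to 27.9 ± 1.82 CPM (SD, n = 3 each). The log2 fold change was −1.77, with a standard error of 0.06, and fits that each lacked 1 library gave −1.81 to −1.71.

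**Figure D2:**
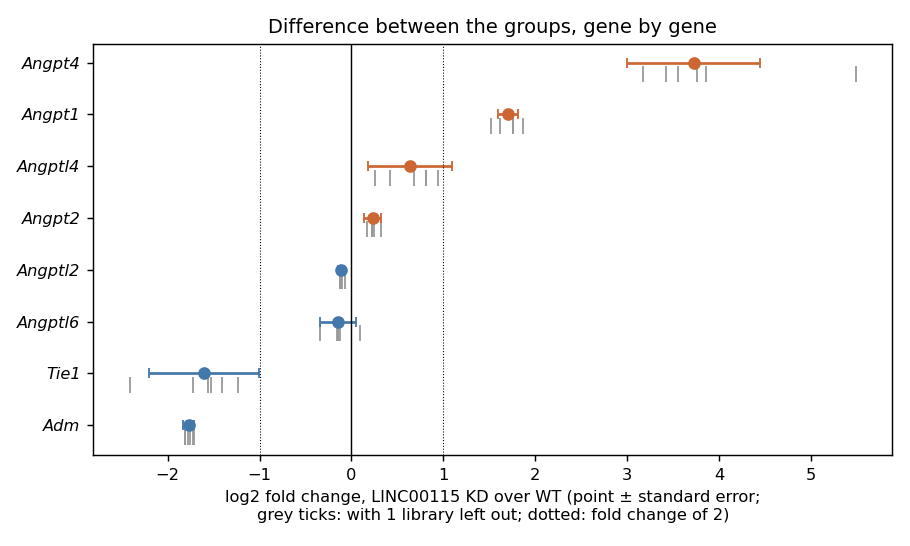
Log2 fold change of KD over WT (x axis) for the 8 members tested, as point and standard error (orange above 0, blue below), with grey ticks for the 6 fits that left out 1 library and dotted lines at a fold change of 2. Angpt1 and Adm keep their size in every fit, whereas Angpt4 runs from 3.16 to 5.49 and Tie1 from −2.41 to −1.23.

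Adm was set beside 13 other hypoxia-induced genes of the table, the class in which Adm and Angptl4 are usually placed. This list was chosen with earlier results of these data known, so its p-values are a description and no independent test. All 13 were tested, and 10 were called lower and 0 higher, beside 9.98% and 10.2% of all genes tested. By adjusted p under 0.05 alone, all 13 were lower (largest 2.22e-18, edgeR's quasi-likelihood test), beside 36.7% of all genes tested (73.4% in either direction). Their median log2 fold change was −1.44, against −0.0061 over all genes tested. Adm lay in the upper range of these decreases, behind Ankrd37 (−2.70), Bnip3 (−2.12), a mitophagy receptor, and Pdk1 (−1.92), which restrains entry of pyruvate into mitochondria. It was not separated by its standard error from Vegfa (−1.75, standard error 0.04), the main vascular growth factor, and lay ahead of P4ha1 (−1.46).

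Angptl4 was not separated between the groups. It had 35, 10 and 31 counts in WT and 52, 29 and 38 in KD, so the groups overlapped, and WT replicate 2 was the lowest. The mean went from 0.671 ± 0.356 to 1.04 ± 0.28 CPM, a log2 fold change of 0.64 (standard error 0.45). This size depended on WT replicate 2, without which it was 0.26. At 10 to 52 counts a library, the WT spread (coefficient of variation 53.1%) exceeded that of counting (19.9%).

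**Figure D3:**
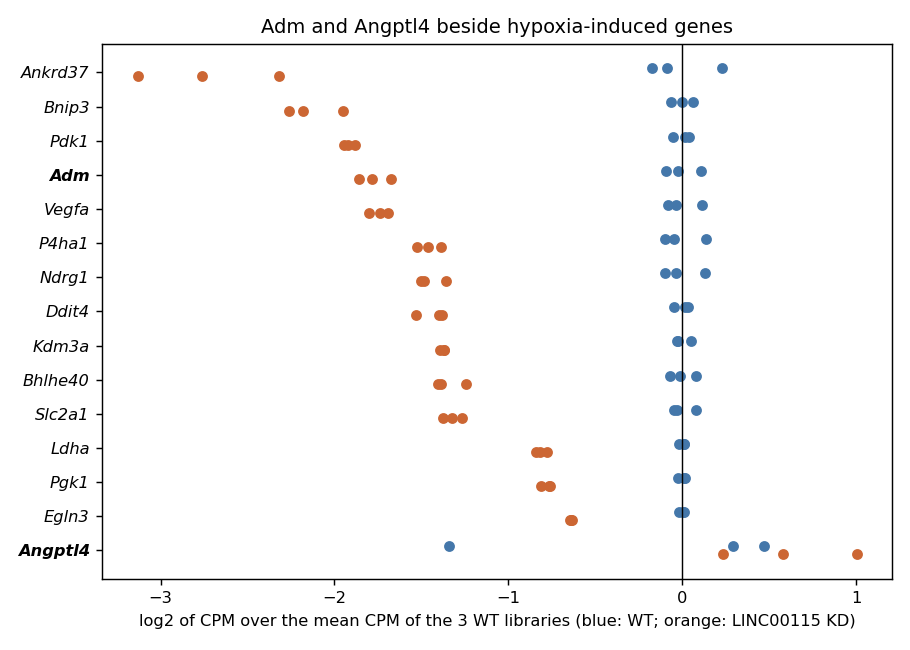
Log2 of each library's CPM over the mean CPM of the 3 WT libraries (x axis) for Adm and Angptl4 (bold) and 13 hypoxia-induced genes, with WT in blue and LINC00115 KD in orange. The KD libraries of Adm and of all 13 genes lie to the left of their WT libraries, while those of Angptl4 overlap the WT libraries.

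Angptl2, a secreted protein linked to inflammation and tissue remodelling, had the most counts of the 9 genes, with 18685, 18395 and 17989 in WT and 17645, 15725 and 17579 in KD. By CPM every KD library was lower than every WT library, but the distance was small. The level was 486 ± 9.96 CPM in WT and 449 ± 18.3 in KD, a log2 fold change of −0.12 (standard error 0.03), and KD replicate 2 was the lowest. The genes whose pattern over the 6 libraries was most like that of Angptl2 were Zfp418 (Pearson r = 0.993 on log2 CPM), Rnf157 (0.993) and LOC118567370 (0.990) among 13489 genes compared, of which 571 had an r over 0.9. Such values are common over 6 libraries that fall into 2 groups and are given as a description.

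Angptl6, a circulating relative made mainly by the liver, had 235, 128 and 179 counts in WT and 163, 161 and 166 in KD. All KD libraries fell between the lowest and the highest WT library. The means were 4.79 ± 1.42 and 4.32 ± 0.09 CPM, a log2 fold change of −0.15 (standard error 0.19), and the sign turned to 0.089 without WT replicate 1. The WT libraries varied by 29.7% and the KD libraries by 2.20%, against about 7.44% and 7.83% from counting.

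By CPM, 6 of the 8 members tested did not overlap between the groups, with Angpt1, Angpt2 and Angpt4 above and Angptl2, Tie1 and Adm below WT. Of all genes tested, 75.6% did not overlap, 37.8% in each direction.

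Of the other angiopoietin-like genes, 3 were in the table and 0 passed the filter on low counts. Angptl7, chosen after its values were seen, had 0 counts in each WT library and 31, 22 and 8 in KD, at least 6.76-fold higher than a limit of 3 counts per library. Angptl8 had 1 count in KD replicate 1 and none elsewhere.

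The receptor pair through which adrenomedullin signals was scarce. Calcrl, which binds adrenomedullin together with a RAMP protein, had 42, 48 and 54 counts in WT and 39, 21 and 23 in KD. This gave −0.80 on the log2 scale with an adjusted p of 0.0714 (edgeR's quasi-likelihood test). Of the alternatives, Calcrl was called only without KD replicate 1 (−1.10). The other fits that each lacked 1 library gave −0.88 to −0.64 and no call. Ramp1 had 4, 11 and 5 counts in WT and 0, 0 and 4 in KD, Ramp2 had none in WT and 8, 4 and 5 in KD, and Ramp3 had at most 9 in a library. Ackr3, a scavenging receptor for chemokines that also takes up adrenomedullin, fell from 97.4 ± 4.12 to 47.6 ± 2.99 CPM, a log2 fold change of −1.03 (adjusted p = 9.53e-19), but was under a fold change of 2 without KD replicate 3 (−0.98). Pam, the enzyme that amidates the peptide, was lower by a small amount (−0.23, adjusted p = 2.90e-06), and Crcp, a receptor component protein, was higher (0.96, adjusted p = 8.28e-16) just under a fold change of 2. In all, 4 of 13 genes of this list in the table were tested, with 1 called lower and 0 higher, beside 9.98% and 10.2% of all genes tested, and a median log2 fold change of −0.51.

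Of 24 genes of Tie2 signalling and its modulators, 18 had over 100 counts in each library. Of these modulators, adaptors and integrin partners, 20 were tested, 0 were called higher and 1 lower, beside 10.2% and 9.98% of all genes tested, with a median log2 fold change of −0.11. That gene was Grb14, an adaptor (−1.05, adjusted p = 0.0148, edgeR's quasi-likelihood test), with 61, 83 and 79 counts in WT and 19, 62 and 26 in KD, groups that overlap. Its call was lost without WT replicate 2 (−0.96), KD replicate 1 (−0.73) or KD replicate 3 (−0.85), and without KD replicate 2 the log2 fold change was −1.73. By adjusted p alone, 10 were lower and 5 higher, beside 36.7% of all genes in each direction. The phosphatase of Tie2, Ptprb, had at most 6 counts in a library.

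Among 17 partners and regulators of ANGPTL4, 11 were tested, 3 were called higher and 2 lower, beside 10.2% and 9.98% of all genes tested, with a median log2 fold change of 0.10. Besides Cdh5, which is also an endothelial marker, Lipg, the endothelial lipase that angiopoietin-like proteins inhibit, rose from 12.5 ± 1.06 to 98.4 ± 2.45 CPM (log2 fold change 2.97, adjusted p = 8.07e-30, edgeR's quasi-likelihood test). Lpl, the lipoprotein lipase, was named after its values were seen. It rose on few counts, with 11, 8 and 7 in WT and 47, 40 and 47 in KD (2.35, adjusted p = 7.18e-05, same test). Lmf1, needed for the maturation of both lipases, fell from 15.4 ± 1.08 to 5.77 ± 0.58 CPM (−1.42, adjusted p = 4.76e-13). Pparg, a nuclear receptor that drives Angptl4 in fat cells, was also named after its values were seen. It fell (−2.57, adjusted p = 0.000625, same test), with 31, 21 and 33 counts in WT and 6, 8 and 0 in KD. Without KD replicate 2 its log2 fold change was −3.20, and without KD replicate 3 it was −1.99. The other nuclear receptors of the list differed in both directions. Ppard was lower (−0.36, adjusted p = 1.14e-08) and Rxra higher (0.40, adjusted p = 1.94e-09, same test), both under a fold change of 2. Ppara, not tested, had 0 counts in each WT library and 6, 6 and 5 in KD.

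**Figure D4:**
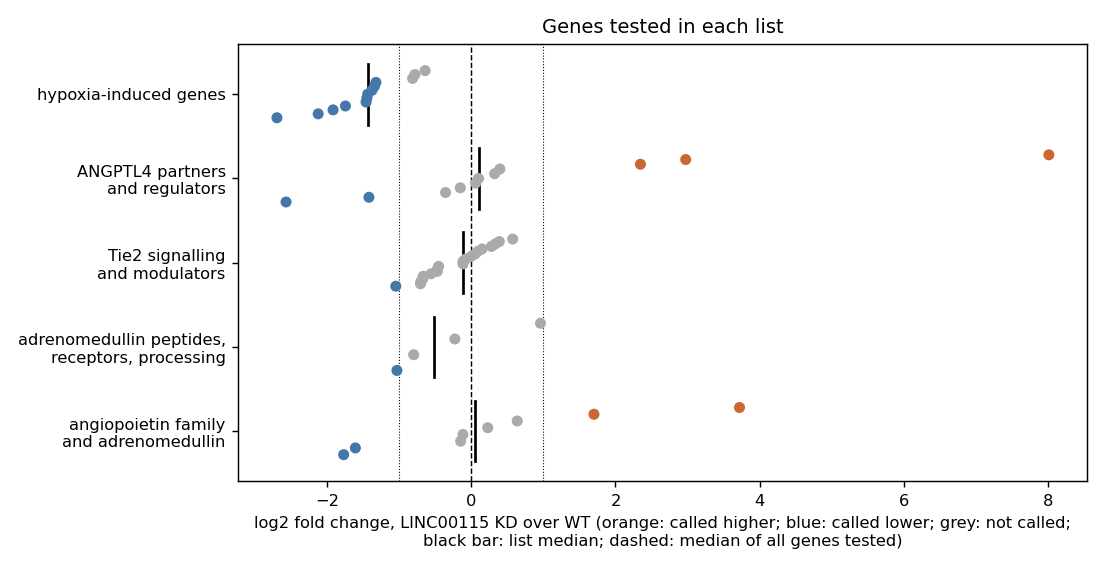
Log2 fold change of KD over WT (x axis) of each gene tested in the 5 groups of genes (rows), with called genes in orange (higher) or blue (lower), list medians as black bars, and dotted lines at a fold change of 2. The 13 hypoxia-induced genes all lie below 0, and the angiopoietin family and adrenomedullin lie on both sides with a median of 0.057.

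Tissue markers also differed between the groups and are given because Angpt1, Angpt4 and Angptl7 were higher in the same libraries. Lung epithelial markers summed to between 1.75 and 1.99 CPM in WT and between 73.5 and 83.4 in KD, and 10 of 10 lay above WT by the same rule. Most of this was Scgb1a1 and Sftpc, which had 0 counts in each WT library, with Napsa next. By this rule, 24.2% of all genes with a count lay above WT and 24.0% below. Kidney markers summed to between 16.7 and 19.5 CPM in WT and between 45.1 and 48.7 in KD, with 9 of 12 higher and 1 lower. The most abundant were Aqp1, Cubn, which was the lower one (8.28 CPM in WT and 6.07 in KD), and Kap, which had 0 counts in each WT library. Pericyte and smooth muscle markers, among the cells that make Angpt1, were at 4.37 to 4.99 CPM in WT and 6.21 to 8.74 in KD, with 5 of 11 higher and 2 lower. The lower ones were the pericyte markers Pdgfrb (0.83 CPM in WT and 0.608 in KD) and Rgs5 (0.592 and 0.169), and the higher ones were Mcam and the smooth muscle markers Tagln, Acta2, Myh11 and Des. Platelet and megakaryocyte markers, cells that store Angpt1, were at 3.36 to 3.97 CPM in WT and 2.45 to 3.54 in KD, with 0 of 8 higher and 2 lower, Gp9 at 0 and Ppbp, Itga2b and Gp1bb leading. Leukocyte and red cell markers were at 39.6 to 53.8 and 55.7 to 61.4 CPM, 4 of 10 higher, Cd3e at 0, led by Cd68, Lyz2 and Cd74. Cd68, the most abundant, overlapped between the groups. The higher ones were Lyz2, Cd74 and the red cell genes Hba-a1 (0, 1 and 0 counts in WT and 31, 18 and 22 in KD) and Hbb-bs (0, 1 and 2, and 48, 23 and 27). Liver markers, mainly Cyp2e1, Apoa1 and Ttr, were at 0 to 0.371 and 1.06 to 1.499 CPM (1 of 9 higher), and adipocyte markers, mainly Fabp4 with Retn and Cfd far behind, at 13.8 to 17.2 and 45.5 to 47.5 CPM (1 of 6 higher). Breast epithelial and carcinoma markers were at 5206 to 5265 and 5705 to 5841 CPM, with 7 of 15 higher and 1 lower. Only transcripts were measured, and whether these markers and the values of the angiopoietins are related was not tested.

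**Figure D5:**
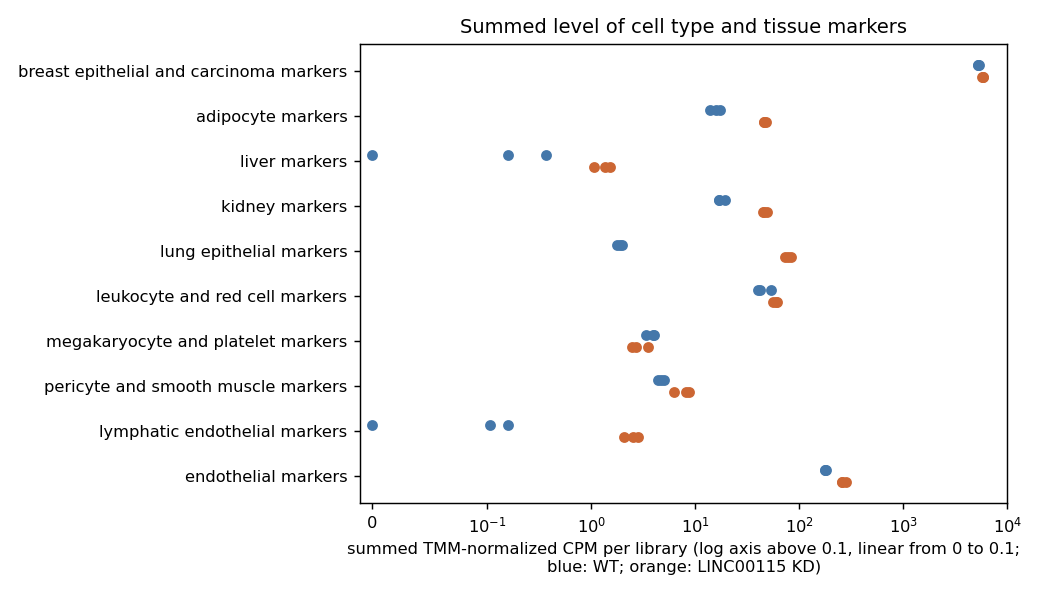
Summed TMM-normalized CPM (x axis, log scale above 0.1 and linear below) of 10 marker lists (rows) in each WT (blue) and LINC00115 KD (orange) library. Lung epithelial markers are at 1.75 to 1.99 CPM in WT and 73.5 to 83.4 in KD, while platelet and megakaryocyte markers overlap between the groups.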

How the data were processed

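RNA-seq counts of 6 libraries were used. The authors trimmed adapters, mapped reads with HISAT2 2.0.5 to hg19 by the study's methods, while the submitters' processing notes name hg38, featureCounts and DESeq2, and deposited whole-number counts per gene without normalization. Both are human builds, whereas the symbols of the table are of mouse style, so the processing as described does not account for them. Which annotation and strand setting were used is not given in the sources used here, so paralogs and overlapping genes may also share reads. Columns were assigned by the sample descriptions.

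The test was edgeR 4.0.16 under R 4.3.3 (filterByExpr with minimum count 10 and total 15, TMM, quasi-likelihood test with group only, Benjamini-Hochberg over 13497 genes). Calls needed an adjusted p under 0.05 and a fold change over 2, as in the study's methods. Standard errors are the log2 fold change over the root of F. Genes at 0 in a group are compared with 3 counts per library. The biological coefficient of variation was 5.21%. Within groups, library pairs differed by 3.94 to 7.96 times the counting noise, so none was a copy. The pipeline was tested on simulated counts. Log2 CPM for likeness used a prior count of 2.

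The members and gene lists were chosen with earlier results of these data known, so p-values of list genes are given as a description. Named are the members, genes of the 2 short lists that reach 10 counts in each library of either group, up to 5 called genes per other list that reach 100 in each library of their higher group, the 3 most abundant markers, absent markers, and the 3 genes most like Angptl2. Others were named after their values were seen. Alternatives were other scalings, filters, DESeq2 1.42.0, no fold threshold, a replicate block and each library left out. Genes of the lists that are not in the table were not analysed here, and some list genes that the rule names are not reported here.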

Additional observations from a re-analysis of the deposited data

How the results depend on the processing

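Adm, Angpt1 and Angpt4 stayed called in the same direction in every alternative that tested them (13, 13 and 12 fits), and Tie1 in 8 of 12. Without each replicate in turn, 1405 to 1488 genes were higher, 1257 to 1392 lower, 1 to 2 members lower, 0 to 1 other angiopoietin-like genes higher, 0 to 1 adrenomedullin genes higher and 0 to 2 lower, and 0 to 1 Tie2 genes lower. Angptl6 ran from −0.34 without WT replicate 2 to 0.089 without WT replicate 1. With at least 10 counts in every sample, which leaves out scarce genes such as Angpt4 and Tie1, 903 genes were higher, 1 member was higher and 1 lower, and 1 ANGPTL4 partner was higher and 1 lower. Without the filter and with DESeq2's Wald test alike, 1 other angiopoietin-like gene, 2 adrenomedullin genes, 1 Tie2 gene and 5 ANGPTL4 partners were higher, as more scarce genes are tested. Without a fold-change threshold, 4952 genes were higher and 4960 lower, with 1 adrenomedullin gene higher and 2 lower, 5 Tie2 genes higher and 10 lower, and 5 ANGPTL4 partners higher and 4 lower.

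With the replicate block, 1360 genes were higher and 1316 lower. Same-numbered libraries shared only a number, with deviations from the group means that correlated by −0.021 to 0.042, and the block changed no call of a member. Under the other scalings, filters and DESeq2, the median log2 fold change of all genes lay between −0.047 and 0.023. Depth limits Tek, Angpt4, Angptl4 and Tie1, which had at most 52 counts in a library.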
